A study of Mus musculus with 6 samples.

Results

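Ensembl-named transcripts are the RNAs that this array design follows only through a transcript identifier of the Ensembl annotation, most of them without a gene name in the files. The members are the non-control probes whose identifier starts with ENSMUST and whose spot was well above background, by the scanner software's own flag, on at least 3 of 6 arrays. Of 8299 such probes, each for another transcript and each 60 bases long, 4348 met this rule, out of 150305 non-control probes in all. A further 854 were well above background on 1 or 2 arrays and 3097 on none. At the edge of the rule, members detected on 3 arrays had a median intensity of 6.25, and probes detected on 2 arrays one of 4.63.

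RNA came from abdominal adipose tissue of C57BL/6 mice, all fed high-fat chow that began at an age of 6 weeks and operated on after 12 weeks of it, when the labels describe them as diabetic. The bypass group (DJB, 3 arrays) had a duodenal-jejunal bypass with a 5 cm biliopancreatic limb and a 4 cm Roux limb, which sends food past the upper small intestine. The Sham group (3 arrays) had the same incision, with the gut cut and sewn back in place. The labels name buprenorphine as the anaesthetic of the bypass and none for the sham procedure. The labels give no genetic modification, no sex, no time after surgery and no diet after it, and do not say whether each array is a separate mouse, so the p-values cover only how much these 6 arrays vary, which may be technical.

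Ensembl lists many transcripts that lie between, inside or opposite the coding genes, and a large share of them are long non-coding RNAs. Such RNAs are usually made at lower levels than messenger RNAs and in fewer cell types. Some act on the gene beside them, some carry microRNAs or small nucleolar RNAs in their introns, and for most no role is known. Many start from the same promoter region as a coding gene and run the other way.

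The files gave a gene name to 2 members, Ucp2 and Agfg2. Others could be placed through their sequence: a probe was tied to a gene where it shared an unbroken run of at least 30 bases with a probe named by a RefSeq non-coding RNA, in the same orientation, or with the window from 250 bases before a gene start to 50 after it (RefSeq, GRCm38.p6) or with a microRNA hairpin. In all 87 members were placed: 39 shared sequence with a RefSeq non-coding probe, 27 lay on the opposite strand of a gene's start window and 15 on the same strand. The probe of each member placed on a non-coding gene and called different between the groups is shown first, followed by Hoxd3os1, with the shared run in capitals.
1110046J04Rik: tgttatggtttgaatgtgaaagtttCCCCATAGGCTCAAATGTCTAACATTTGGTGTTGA
Mir100hg: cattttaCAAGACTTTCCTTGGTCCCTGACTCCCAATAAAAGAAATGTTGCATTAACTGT
1700108F19Rik: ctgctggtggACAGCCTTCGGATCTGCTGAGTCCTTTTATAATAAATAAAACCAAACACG
9530026P05Rik: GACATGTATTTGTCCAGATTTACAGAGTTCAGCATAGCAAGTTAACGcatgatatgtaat
Gm2694: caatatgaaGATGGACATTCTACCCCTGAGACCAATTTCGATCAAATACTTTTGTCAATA
Hoxd3os1: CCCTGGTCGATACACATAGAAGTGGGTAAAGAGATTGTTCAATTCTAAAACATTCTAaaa

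These genes lie on GRCm38.p6 at chr13:33936032-33960181 (1110046J04Rik, plus strand), chr9:41376526-41615185 (Mir100hg, plus strand), chr14:76677568-76687108 (1700108F19Rik, plus strand), chr6:92940582-93111749 (9530026P05Rik, plus strand), chr8:87472812-87525554 (Gm2694, plus strand) and chr2:74710044-74716130 (Hoxd3os1, minus strand). RefSeq annotates all 6 as long non-coding RNAs. The shared runs were 35, 53, 50, 47, 51 and 57 bases long in that order.

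Another pair of called members ran the other way from beside the start of a coding gene. Their probes are given with the 120 bases that lie 250 to 131 bases before an annotated start of that gene, read on the strand of the gene. In the probe the capitals mark the run found in this window, and in the upstream stretch they mark its reverse complement.
Probe before Sec62: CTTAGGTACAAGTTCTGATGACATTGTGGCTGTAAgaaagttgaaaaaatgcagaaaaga
Upstream of Sec62: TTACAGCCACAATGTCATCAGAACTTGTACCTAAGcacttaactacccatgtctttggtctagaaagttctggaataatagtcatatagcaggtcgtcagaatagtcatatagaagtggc
Probe beside Immt: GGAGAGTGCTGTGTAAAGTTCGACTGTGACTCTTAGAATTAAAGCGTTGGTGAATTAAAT
Upstream of Immt: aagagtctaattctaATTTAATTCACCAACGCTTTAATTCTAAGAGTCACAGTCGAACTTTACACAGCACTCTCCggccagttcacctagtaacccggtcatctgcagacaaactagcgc

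On GRCm38.p6 the run of 35 bases before Sec62 is chr3:30792626-30792660 and the run of 60 bases beside Immt is chr6:71831085-71831144, both on the minus strand, while Sec62 and Immt are on the plus strand. RefSeq begins Sec62 at base 30792876, beyond its stretch, but begins Immt at base 71831091, so most of the probe beside Immt also lies within the earliest bases of the annotated gene, on its other strand. The rest of the Sec62 probe extends beyond the window, and its place was not read.

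Before the group comparison, the samples were checked against markers of fat and of neighbouring tissues. All 6 adipocyte markers (Adipoq, Plin1, Lep, Fabp4, Cidec, Lipe) were well above background on all 6 arrays, with log2 values between 2.54 and 10.07 on the scale of this text, which is log2 processed signal minus the array's 75th percentile. Their summed level lay between 11.29 and 11.47 on Sham and between 10.20 and 11.12 on DJB, and of the 6 only Lep, the gene of leptin, was called, lower in DJB. In bulk tissue, fewer cells of a type and less RNA per cell cannot be told apart. Sham-1 and Sham-2 stood apart from the other arrays: on both, 721 tested probes of all kinds read more than 2 log2 units above every other array, against 224 for the 3 Sham arrays together. The counts of calls are therefore also given without each of these arrays. The arrays were read from 2 slides, with Sham-1, Sham-3, DJB-1 and DJB-2 on the first and Sham-2 and DJB-3 on the second.

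Of the Ensembl-named transcripts called different after the bypass, most were lower, by a margin that depended on the background treatment. Of 4343 members that could be tested, 27 were called higher in DJB and 193 lower (limma, Benjamini-Hochberg adjusted p under 0.05 over all tested probes). That is 220 members, or 5.07%, beside 5.00% of all 99423 tested probes. By direction, 0.622% of members were higher, beside 1.84% of all tested probes, and 4.44% were lower, beside 3.16%. The median difference over members was -0.03 and over all tested probes 0.08 (log2, DJB minus Sham). The sign of the members' median was not stable: it was 0.11 after normexp background correction, 0.08 with median scaling, and 0.04 both with quantile normalization and in the authors' deposited log2 values. After normexp, 3.91% of members were lower beside 4.93% of all tested probes, and 3.66% were higher beside 7.05%, so the larger share of falls among members turned round there. Of the members that passed the filter, 79 were detected on all 3 Sham arrays and no DJB array, and 3 the other way. The same counts were not taken over all probes. Of all non-control probes, 64.7% to 68.8% were well above background on the Sham arrays and 62.6% to 64.9% on the DJB arrays. Of all Ensembl-named probes it was 50.9% to 56.4% and 47.5% to 50.8%. With no filter on dim probes, 4 Ensembl-named probes were called higher and 37 lower. That is 0.446% lower, beside 0.383% of all probes then tested, and 0.0482% higher, beside 0.0486%. The part of the filter in the direction of the calls was not tested. Among calls detected on all 6 arrays, 141 were lower and 21 higher. In a separate fit of only the probes detected on all 6 arrays, 6.30% of members were lower beside 4.57% of all, and 1.43% higher beside 3.92%. Without adjustment, 1016 members (23.4%) had a limma p under 0.05, beside 28.2% of all tested probes. The other 5 members had too few spots left after outlier spots were removed.

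The counts depended on single arrays, for members as for all tested probes. Without Sham-1, 0 members were called higher and 5 lower (0.115% lower, beside 0.119% of all tested probes). Without Sham-2 it was 0 and 16 (0.368% beside 0.316%). Without DJB-2 it was 0 and 11 (0.253% beside 0.189%), and without DJB-1 it was 2 and 50 (1.15% beside 0.732%). Without Sham-3 it was 10 and 110 (2.53% beside 2.74%), and without DJB-3 it was 26 and 163 (3.75% beside 3.20%). With slide as a block, 2 were higher and 38 lower (0.875% beside 0.623%). Higher calls made up at most 0.599% of members and 0.795% of all tested probes in these fits. The share of calls that were higher also moved with the background treatment and scaling: normexp background correction gave 159 higher and 170 lower, quantile normalization 51 and 146, median scaling 37 and 128, and the authors' deposited log2 values 44 and 146. Median scaling moved the median of all probes up by 0.11, and the other scalings tried moved it by less.

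Markers of other tissues moved with the falls. The summed level of the smooth muscle list lay between 8.17 and 8.76 on Sham and between 6.75 and 7.06 on DJB (log2), with Acta2, Myh11 and Cnn1 called lower of 5 listed. The liver list lay between 5.89 and 7.21 against 3.64 and 5.16, with Alb and Serpina1a called lower of 6. Most of the liver sum was Cyp2e1 (-2.63, adjusted p = 0.051), while Fgb differed by -0.20, Ttr by 0.44 and Apoa1 by 1.62, none called. The skeletal muscle list lay between 5.54 and 6.69 against 4.21 and 4.57, with Acta1 and Pvalb called lower of 6. Its fall was mainly that of Acta1 (-4.77), while Actn3 differed by -0.04, Mylpf by 0.07 and Ckm by 0.28, none called, and Myh4 stayed near background on all 6 arrays. The mesothelium list lay between 6.45 and 6.63 against 4.42 and 5.74, with Krt19 called lower of 5. The macrophage list was the other way round, between 9.11 and 9.63 on Sham and 9.71 and 9.96 on DJB, with Itgam called higher of 5. Of 4 neutrophil markers S100a9 was called higher, while S100a8 differed by -0.26, Csf3r by 0.34 and Ly6g by 0.18, none called. The red blood cell list (10.55 to 10.93 on Sham, 9.03 to 10.15 on DJB) and the pancreatic acinar list (5.51 to 5.96, 4.52 to 5.36) were lower on every DJB array with no gene called, and the B cell and epididymis lists overlapped between the groups. The part of these tissues in the members' differences was not tested.

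**Figure D1:**
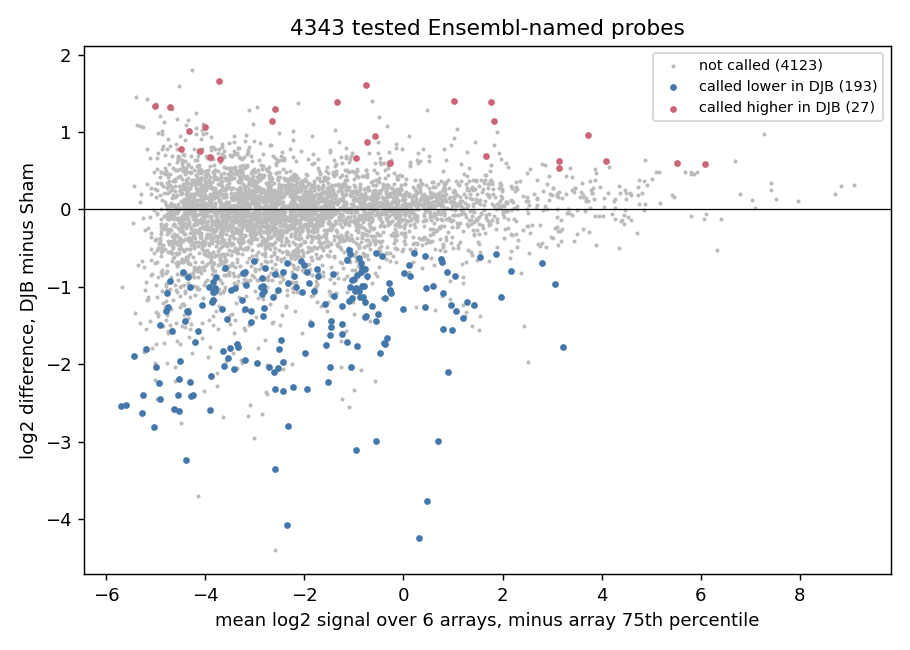
Each point is 1 of 4343 tested Ensembl-named probes, with its mean log2 signal over 6 arrays (minus the array's 75th percentile) on the x axis and its log2 difference, DJB minus Sham, on the y axis. The 193 probes called lower are blue and reach -4.24, and the 27 called higher are red and reach 1.66.

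In the plot of signal against difference, called falls outnumbered called rises, as they did over all tested probes (3137 and 1830). A fitted difference of at least 2-fold was seen for 134 of the 193 falls and for 12 of the 27 rises. Neither this count nor that of the dim calls below was taken over all tested probes. Every one of the 220 called members had groups that did not overlap. Groups did not overlap for 1173 of 4343 members (27.01%), beside 36.1% of all tested probes. On the dim side, 32 called falls were not well above background on any DJB array and 2 called rises on any Sham array, so their differences are bounds. The largest bound among these falls was at least 4.25-fold, and among these rises at least 1.88-fold.

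The largest called differences belonged to transcripts that the sources used here tie to no gene, and the files give their position as unmapped. ENSMUST00000130054 read 2.98, 1.98 and 2.38 on Sham-1 to Sham-3, and -2.09, -1.62 and -1.68 on DJB-1 to DJB-3. All Sham values were above all DJB values, and the difference was -4.24 (SE 0.28, limma adjusted p = 0.0066). ENSMUST00000152968 read -0.32, -0.41 and -0.20 on Sham and -5.49, -4.21 and -3.46 on DJB. It was close to equal on the Sham arrays and spread widely on the DJB arrays, with a difference of -4.08 (SE 0.49, adjusted p = 0.023). It was well above background on 2 DJB arrays only. The DJB-1 value lay below the lowest detected signal of that array, -4.84, so the spread and the difference include an undetected value.

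Among rises, ENSMUST00000185960 read -4.91, -3.85 and -4.89 on Sham and -2.50, -2.94 and -3.21 on DJB. It was well above background on 1 Sham array and all DJB arrays, and differed by 1.66 (SE 0.34, limma adjusted p = 0.049). ENSMUST00000167672 read -1.73, -1.41 and -1.55 on Sham and -0.50, 0.55 and 0.07 on DJB, which is a rise of 1.60 (SE 0.27, adjusted p = 0.038). With overlapping probes represented by the one of highest mean signal, the 10 largest called falls detected in both groups ran from -4.24 to -2.32, and the 10 largest rises from 0.96 to 1.66. One of these falls, at -2.35, could be placed, on Gm2694. The 5 brightest members differed by 0.11 to 0.32, and none of them was called.

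Of the 87 placed members, 7 were called, 1 higher and 6 lower, and 27 had groups that did not overlap. Over all tested probes, 5.00% were called and 36.1% had groups that did not overlap. The median difference of the placed members was -0.02. Among the 7 called, 5 shared sequence with a RefSeq non-coding probe and 2 lay opposite the start of a coding gene. None of the 15 on the same strand of a start window and neither of the 2 on microRNA hairpins was called. Leaving out Sham-1 or DJB-2 left none of the 7 called.

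**Figure D2:**
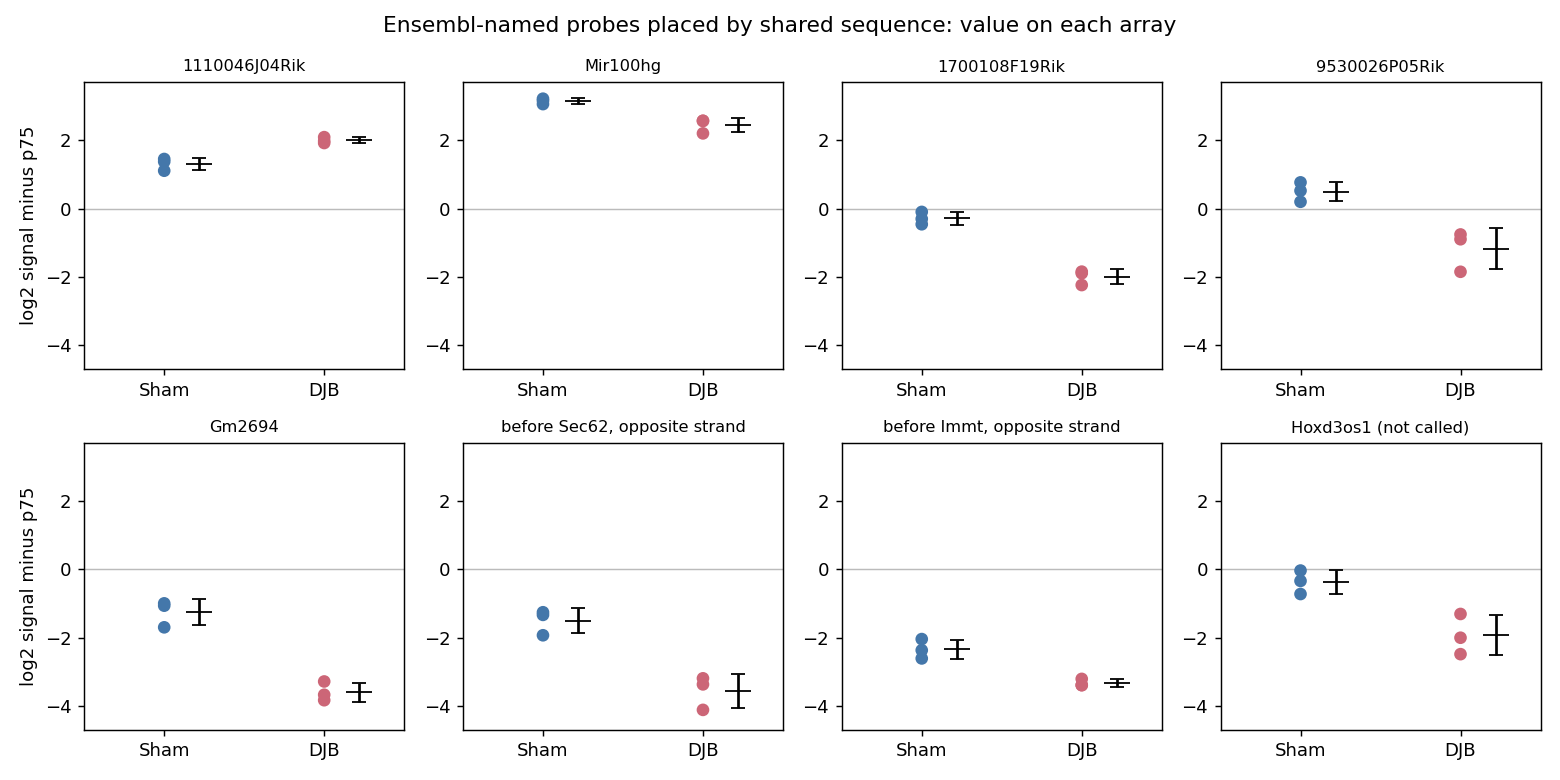
Log2 signal minus the array's 75th percentile (p75 on the axis) for the 7 called members placed by shared sequence and for Hoxd3os1, with Sham arrays in blue and DJB arrays in red and the mean and SD (n = 3) beside them. Only 1110046J04Rik lies higher in DJB, and in every panel the groups do not overlap.

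1110046J04Rik, a non-coding gene with no role given here, was the placed member that rose. Its probe read 1.11, 1.38 and 1.45 on Sham-1 to Sham-3, and 2.09, 1.92 and 1.98 on DJB-1 to DJB-3. All DJB values exceeded all Sham values, by 0.69 on average (SE 0.13, limma adjusted p = 0.046). The RefSeq-named probe that shares 35 bases with it differed by 0.70 (adjusted p = 0.043).

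Mir100hg, the host transcript of a microRNA cluster, was a member that fell. It read 3.06, 3.16 and 3.22 on Sham and 2.57, 2.57 and 2.20 on DJB. The Sham values lay within a narrow range above all DJB values, a difference of -0.70 (SE 0.14, limma adjusted p = 0.049). The RefSeq-named probe sharing 53 bases differed by -0.71, with an adjusted p of 0.056 that missed the threshold.

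The other non-coding genes that fell have no role given here. 1700108F19Rik read -0.30, -0.46 and -0.10 on Sham and -2.24, -1.90 and -1.85 on DJB, a difference of -1.71 (SE 0.16, limma adjusted p = 0.014). Its RefSeq-named probe differed by -1.92 (adjusted p = 0.0096). This was a fall of about the same size in each DJB array, and with slide as a block it kept an adjusted p of 0.040. After normexp background correction the difference was -0.90 (adjusted p = 0.0084).

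Gm2694 read -0.998, -1.07 and -1.70 on Sham and -3.84, -3.68 and -3.29 on DJB. The groups were separate by more than the range within either. The difference was -2.35 (SE 0.24, limma adjusted p = 0.017), its RefSeq-named probe differed by -2.24 (adjusted p = 0.014), and with slide as a block the adjusted p was 0.033. After normexp background correction the difference was -0.73 (adjusted p = 0.018). Within the first slide the Gm2694 difference was -2.41 and within the second -2.22.

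9530026P05Rik read 0.52, 0.20 and 0.77 on Sham and -1.85, -0.90 and -0.76 on DJB. DJB-1 was the lowest array and the groups did not overlap, with a difference of -1.67 (SE 0.32, limma adjusted p = 0.045). Its RefSeq-named probe differed by -1.54 with an adjusted p of 0.059. Within the slides the differences were -2.02 and -0.96.

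Of the pair on the opposite strand of a gene start, the member before Sec62 showed the larger fall. Sec62 is a part of the machinery that moves proteins into the endoplasmic reticulum. The probe before its start, on the opposite strand, read -1.26, -1.34 and -1.93 on Sham and -4.12, -3.20 and -3.37 on DJB. Every Sham value was above every DJB value. This upstream probe fell by 2.05 (SE 0.30, limma adjusted p = 0.030), and after normexp background correction by 0.61 (adjusted p = 0.029). The brightest of 3 tested NM_ probes of Sec62 itself read 3.29, 3.34 and 3.34 on Sham and 3.28, 3.42 and 3.53 on DJB. It differed by 0.08 (adjusted p = 0.67).

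Immt encodes mitofilin, which shapes the folds of the mitochondrial inner membrane. The antisense probe beside Immt read -2.37, -2.04 and -2.61 on Sham and -3.40, -3.21 and -3.39 on DJB. Here too the groups were separate, and the probe fell by 0.99 (SE 0.17, limma adjusted p = 0.038). After normexp background correction the difference was -0.13 with an adjusted p of 0.31. The brightest of 3 tested NM_ probes of Immt read 5.83, 5.72 and 5.96 on Sham and 5.53, 5.63 and 5.60 on DJB, a difference of -0.25 (adjusted p = 0.21).

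Whether a member moved apart from the coding gene beside it was then tested on each array, as the member's value minus that of the gene's NM_ probe. Such a fit was made for 24 members in a start window, among 266 pairs of all probe types. Where a gene had more than 1 tested NM_ probe, only the one with the highest mean signal was used here. For Sec62 this departure was -2.14 (SE 0.28, limma adjusted p = 0.018), the only 1 called among the members, beside 1.13% of all pairs. The adjusted p was 0.0996 without Sham-1, 0.108 without Sham-2 and 0.061 with slide as a block, and after normexp the departure was -0.63 (adjusted p = 0.021). For Immt the departure was -0.74 (SE 0.22, adjusted p = 0.15). The 24 departures ranged from -2.14 to 0.93 with a median of -0.14, and 12 of the 24 members had the same sign of difference as their gene.

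Other members beside a coding gene gave departures that were not called. The probe opposite the start of Sidt1 differed by -0.45 and the Sidt1 probe by -1.38, a departure of 0.93 (SE 0.27, limma adjusted p = 0.14). The one opposite Baz2b read 4.81, 4.75 and 5.01 on Sham and 5.66, 5.13 and 5.25 on DJB, all above Sham, and differed by 0.49 (adjusted p = 0.13), with the Baz2b probe at -0.03. The one opposite Crot, which encodes a peroxisomal carnitine acyltransferase, differed by 0.28 and Crot itself by -0.20. The opposite directions at Crot and Baz2b did not pass the test of the departure (adjusted p = 0.21 and 0.16).

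By position, few members could be set against an NM_ probe. By the files' own positions 1 member entered the departure test and was not called, in a fit of 142 pairs of which 9.86% were called. The files map 2 Ensembl-named probes, of 8299, against 27246 of 47074 NM_ probes. A further 25 members took the mm9 position of the RefSeq non-coding probe they share sequence with. Of these 27, 2 overlapped the nearest NM_ probe, 1 lay up to 1000 bases away, 8 lay farther but within 10000 bases, 11 lay up to 100000 bases away and 5 farther. The nearest NM_ probe was on the same strand for 11 and on the opposite strand for 16.

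Ucp2, a carrier of the mitochondrial inner membrane, was measured by a member and by an NM_ probe 1622 bases away on the same strand. The member, at chr7:107649490-107649549 on mm9, read -0.34, -0.02 and 0.21 on Sham and 0.70, 0.57 and 0.49 on DJB. All DJB values were higher, by 0.64 (SE 0.17, limma adjusted p = 0.077), which missed the threshold. This NM_ probe, 1 of 3 tested for Ucp2, read 5.57, 5.68 and 5.88 on Sham and 6.86, 6.36 and 6.46 on DJB. It was called, at 0.85 (adjusted p = 0.049). The departure between the Ucp2 probes was -0.21 (SE 0.16, adjusted p = 0.41). The member of Agfg2 lay 12092 bases from its NM_ probe and differed by -0.06 (adjusted p = 0.77).

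Hoxd3os1 is an antisense RNA of the HoxD cluster of developmental regulators, and its probe lay 3086 bases from that of Hoxd8, on the opposite strand. It read -0.04, -0.34 and -0.72 on Sham and -2.49, -2.01 and -1.31 on DJB. The groups did not overlap, and the difference of -1.57 (SE 0.33) had a limma adjusted p of 0.052. This Hoxd8 probe, 1 of 2 tested, read 1.34, 1.09 and 0.97 on Sham and -0.10, 0.49 and 1.23 on DJB, groups that do overlap. It differed by -0.59 (adjusted p = 0.29). The departure of Hoxd3os1 from Hoxd8 was called, at -0.97 (SE 0.15, adjusted p = 0.014). It was the only called departure among the 10 members within 10000 bases, in a fit of 151 pairs of which 9.93% were called. Its adjusted p was 0.065 without Sham-1, 0.061 without Sham-2 and 0.054 without DJB-2, and after normexp background correction the departure was -0.40 (adjusted p = 0.094).

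2310001K24Rik lay 4134 bases from Fitm2, which takes part in the budding of lipid droplets, on the opposite strand. The member read -1.09, -1.49 and -1.34 on Sham and -3.43, -2.07 and -1.78 on DJB. Fitm2 read 1.57, 0.97 and 1.17 on Sham and -0.55, 0.30 and 0.75 on DJB. DJB-1 was the lowest array for both. The differences, -1.12 (limma adjusted p = 0.16) and -1.07 (adjusted p = 0.12), did not pass the test, and the departure was -0.05 (SE 0.18).

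**Figure D3:**
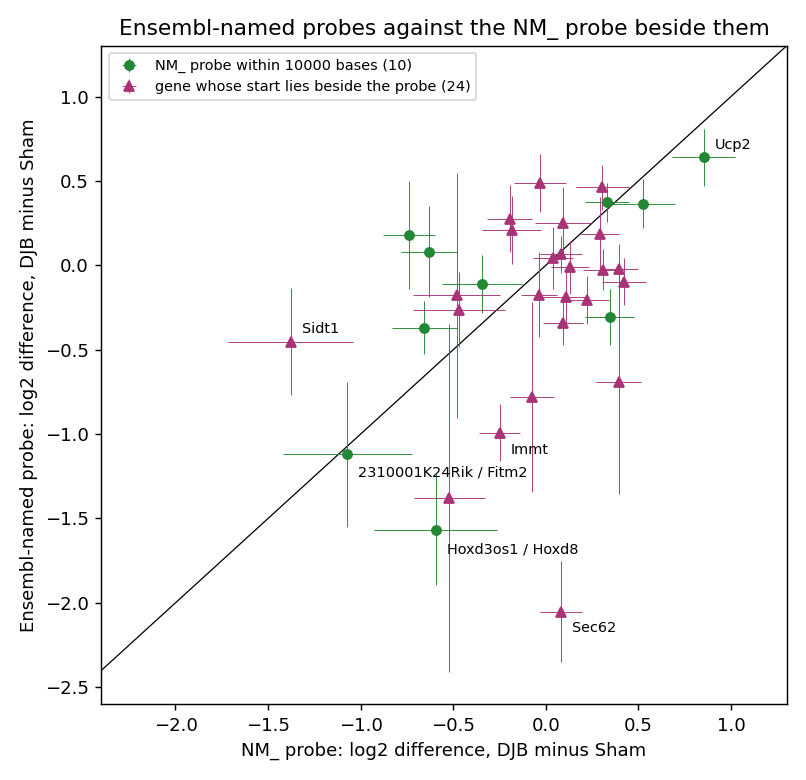
Log2 difference, DJB minus Sham, of each Ensembl-named probe (y axis) against that of the NM_ probe beside it (x axis), with standard errors as bars. Circles are 10 members within 10000 bases of an NM_ probe and triangles 24 members in the start window of a gene, and Sec62 and Hoxd3os1 the called departures, lie below the line of equal change.

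Across the 10 nearby pairs the differences of member and NM_ probe had a Pearson r of 0.64, and across the 24 start-window pairs 0.23, as descriptions of values that share arrays. In the plot of members against the gene beside them, the median gap between both differences was 0.26 for the nearby pairs and 0.40 for the start-window pairs. Of 10 gene lists on fat cell, immune, matrix and muscle biology, with 255 genes in all, none held a gene beside a member. Only 27 members had a position, so this count cannot show whether members lie beside these genes.

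Placed members with better known roles were mostly not called. Morrbid, which controls the survival of short-lived myeloid cells in mice, read 2.10, 2.33 and 2.41 on Sham and 2.53, 3.28 and 2.61 on DJB, all above Sham, with a difference of 0.53 (SE 0.23, limma adjusted p = 0.19). Chaserr, which restrains the gene Chd2 beside it, differed by -0.00 (SE 0.14). The small nucleolar RNA hosts Zfas1 and Snhg5 differed by 0.15 and -0.07, Pvt1, a neighbour of Myc, by 0.08, and the microRNA host Dleu2 by 0.37 (SE 0.14, adjusted p = 0.16).

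Imprinted loci were also among the placed members. One probe shared 35 bases with the window before one of the annotated starts of Meg3, a maternally expressed RNA, at chr12:109545148-109545182 on the plus strand (GRCm38.p6). It read 4.01, 4.91 and 4.73 on Sham and 5.40, 5.18 and 4.97 on DJB, with Sham-1 the lowest array, and differed by 0.64 (SE 0.26, limma adjusted p = 0.17). Another probe shared 36 bases with the start window of Ipw, a paternally expressed RNA of the Prader-Willi region. It read -1.85, -2.31 and -1.92 on Sham and -3.28, -3.07 and -2.54 on DJB, a difference of -0.94 (SE 0.23, adjusted p = 0.069). Their probes, with the run that matches the window in capitals, are shown because these placements rest on that stretch alone. For Ipw the run begins 19 bases before the start. The rest of that probe, if contiguous, would also lie inside the window, but it did not match there, and its place was not read.
Meg3: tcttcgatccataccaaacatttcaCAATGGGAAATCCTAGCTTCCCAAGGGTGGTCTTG
Ipw: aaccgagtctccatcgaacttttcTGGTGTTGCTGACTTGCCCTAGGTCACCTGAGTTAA

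Some members followed single arrays rather than the groups. On Sham-1 and Sham-2, 15 members read more than 2 log2 units above every other array, and 10 members did so on all 3 Sham arrays. Beside the 4343 tested members, the 99423 tested probes of all kinds held 721 and 224 such probes. These 15 were picked after their values were seen. Their median was 0.28 on Sham-1 and -0.73 on Sham-2, and between -4.53 and -3.72 on the other 4 arrays. Sham-3 sat with the DJB arrays, so the groups overlapped for all 15, and a call was made for none of them.

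Among these 15 were 3 probes that share 55 to 58 bases with the RefSeq probe of Pantr1, a non-coding RNA described in brain, at chr1:42648200-42694825 on GRCm38.p6. Their sequences, with the bases of the RefSeq probe in capitals, show that they read the same stretch.
ENSMUST00000176154: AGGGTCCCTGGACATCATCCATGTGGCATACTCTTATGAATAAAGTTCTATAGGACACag
ENSMUST00000176977: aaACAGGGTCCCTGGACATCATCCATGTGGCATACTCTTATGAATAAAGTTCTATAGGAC
ENSMUST00000181725: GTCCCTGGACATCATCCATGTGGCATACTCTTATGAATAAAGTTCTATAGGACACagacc

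The first of the Pantr1 probes, ENSMUST00000176154, read 0.41, -0.70 and -4.40 on Sham-1 to Sham-3 and -4.68, -3.70 and -3.47 on DJB-1 to DJB-3. Sham-1 and Sham-2 were high and the other 4 arrays low, and the difference of -2.39 had a limma adjusted p of 0.25. Without Sham-3, the low Sham array, the adjusted p of the 3 Pantr1 members ran from 0.020 to 0.031. The RefSeq-named Pantr1 probe differed by -2.83 (adjusted p = 0.22). On Sham-1 and Sham-2 the summed level of 9 sperm genes was 5.84 and 5.51, against 1.16 to 2.17 on the other 4. That of 7 measured genes of motile cilia was 6.12 and 5.26, against 1.57 to 2.31. Prm2, a protamine that packs sperm DNA, read 5.11 and 4.63 on them and -0.93 to 0.70 elsewhere. Foxj1, a regulator of motile cilia, read 5.35 and 4.51 against -3.27 to 0.87. Not every listed gene followed, and the sums rest mostly on the brightest genes. Dnah5 of the cilia list read -0.60 and -1.52 on Sham-1 and Sham-2 and -1.91 to -0.97 elsewhere. Ldhc of the sperm list read -2.66 and -2.73 against -3.59 to -2.81. These lists were chosen after the pattern was seen, and their part in the members' pattern was not tested.

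**Figure D4:**
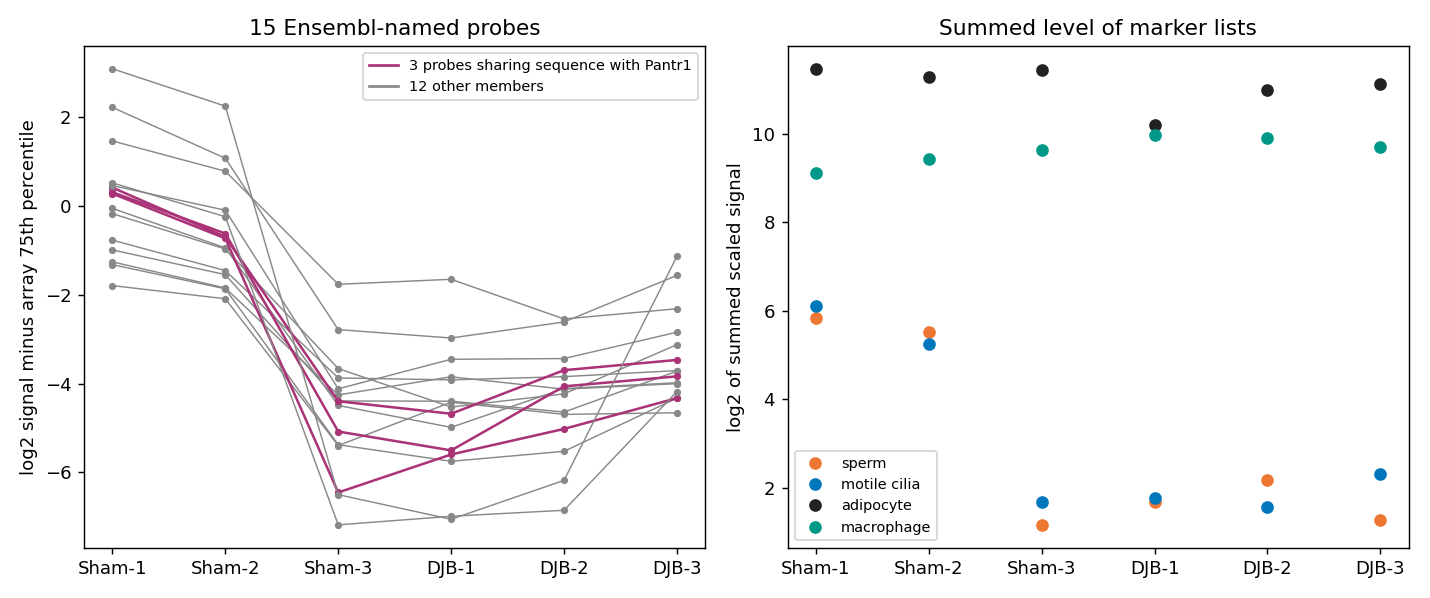
Left, log2 signal minus the array's 75th percentile of the 15 Ensembl-named probes high on Sham-1 and Sham-2, with a line joining each probe's values and the 3 Pantr1 probes in purple. Right, log2 of the summed scaled signal of 4 marker lists, where the sperm and motile cilia lists lie between 5.26 and 6.12 on Sham-1 and Sham-2 and at 2.31 or below elsewhere.

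Probes that overlap gave like differences. Between members and tested probes of any kind sharing at least 30 bases in the same orientation, 232 pairs, the median gap between their log2 differences was 0.09 and the Pearson r 0.93, a description over pairs that share arrays. The gap was within 0.5 for 214 of the pairs. In 10 pairs of opposite orientation the median gap was 0.47 and r 0.33. Of 19 pairs whose member was called, the other probe was called in 10, so a call often did not carry over. Missing the threshold does not by itself show that the probes of a pair differ. Among the members themselves, 128 shared at least 25 bases with another member, in 59 families, and with 1 probe per family the counts were close to those of all members.

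**Figure D5:**
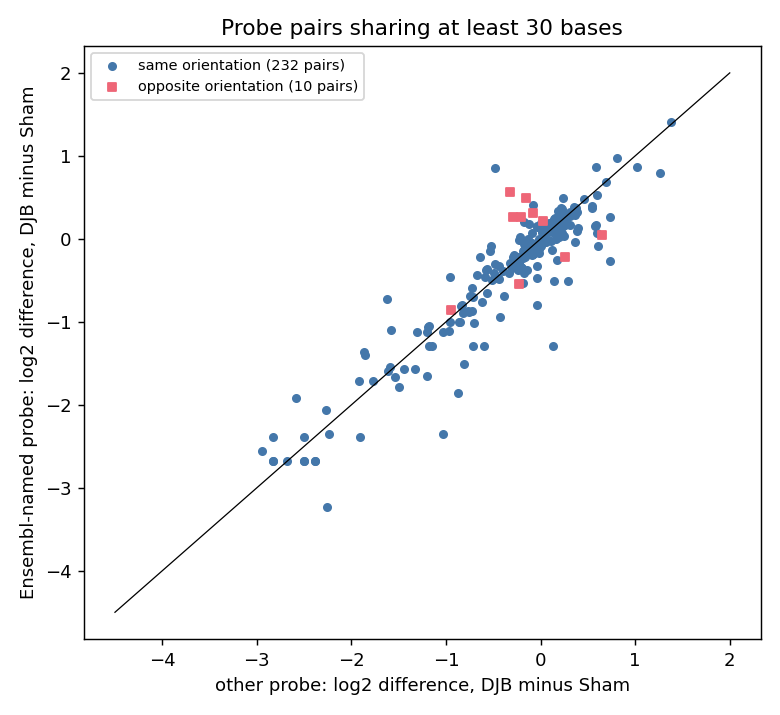
Log2 difference, DJB minus Sham, of an Ensembl-named probe (y axis) against that of a probe sharing at least 30 bases with it (x axis), for 232 pairs of the same orientation (blue) and 10 of opposite orientation (red). Blue points follow the line of equal difference, with a median gap of 0.09.

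As a class, members were seen less often and less brightly than coding probes. The rule was met by 52.4% of Ensembl-named probes, against 84.0% of NM_ probes, 59.5% of RefSeq non-coding probes and 40.9% of probes named by NONCODE, a catalogue of non-coding RNAs. The median processed intensity of tested members was 31.3, and that of tested NM_ probes 378. Of NM_ probes, 1.91% were called higher and 5.18% lower, of RefSeq non-coding probes 0.965% and 8.08%, and of NONCODE probes 0.668% and 2.16%. These differences between classes were not tested. Falls made up 4.24%, 3.50%, 5.53% and 4.51% of members from the dimmest to the brightest of 4 equal groups, and rises 0.829%, 0.184%, 0.184% and 1.29%.

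Base composition went with the direction of change. Members with GC content under 40% had a median difference of -0.13 and were called lower in 6.67%, those from 40% to under 45% had -0.03 and 4.36%, and those with 45% or more had 0.05 and 2.03%. Over all tested probes the same bins had medians of -0.00, 0.07 and 0.12 and were called lower in 5.41%, 2.999% and 1.97%. Across the 4343 members, GC content and difference had a Pearson r of 0.18, with base composition and arrays shared among the points. The part of base composition in the differences was not tested.

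The sequence AATAAA, the common polyadenylation signal, searched on the probe strand, was found in 582 of 4343 tested member probes (13.4%), against 13.7% of NM_ probes, 13.03% of RefSeq non-coding probes, 5.76% of NONCODE probes and 7.98% of all tested probes. Among the placed and called members it lay in the probes of Mir100hg and 1700108F19Rik.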

How the data were processed

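Total RNA was amplified, labelled with Cy3 and hybridised to 1-colour Agilent arrays. Per the file headers, the deposited intensity values are background-subtracted processed signals from Feature Extraction 12.0.3.1 (protocol GE1_1200_Jun14), and positions follow mm9. The authors' series table holds log2 values whose scale, judged against the deposited scanner intensity, is a normalized log2 signal; the submitters' processing notes name limma. The files used here hold 155279 of 180880 features announced per array.

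Each array's log2 processed signal had its 75th percentile over non-control probes subtracted, and outlier spots were set missing. Probes well above background on at least 3 of 6 arrays, with 2 values per group, were tested with limma 3.58.1 in R 4.3.3 (Benjamini-Hochberg over all tested probes, threshold 0.05), after testing on simulated data. The number of arrays limits the precision. The exact permutation test of 3 against 3 cannot go below 0.10. Bounds set the dim group at each array's lowest signal among probes well above background. Alternatives were normexp (offset 50), median and quantile scaling, the deposited values, other filters and priors, slide and replicate blocks, and each array left out. Replicate numbers did not pair the samples.

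The planned pair test by position could be made for 1 member, so borrowed positions and start windows were added after seeing the data, as were the 25 and 40 base limits, 1 probe per family and the sperm and cilia lists. Members and lists were chosen with earlier results of these data known. Named were the 10 largest called rises and falls detected in both groups (of probes sharing at least 25 bases and called in the same direction, the one with the highest mean signal stood for all), the 3 largest bounds each way, the 5 brightest members and called departures, with at most 2 unplaced identifiers printed each way; placed members were chosen for their role or call after their values were seen.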

Additional observations from a re-analysis of the deposited data

How the results depend on the processing

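The count of called members, 220, was 347 with a trended and robust prior, 40 with slide as a block and 41 with no filter on dim probes, and ran from 5 to 189 with 1 array left out. Members called higher, 27 in the report, numbered 159 after normexp, 51 after quantile normalization, 44 in the deposited values, 62 with the trended and robust prior, 2 with slide as a block, 4 with no filter and 51 among probes detected on all 6 arrays, and 0 to 26 with 1 array left out. Members called lower, 193, numbered 128 after median scaling, 38 with slide as a block and 37 with no filter, and 5 to 163 with 1 array left out. Over all tested probes, lower calls, 3137, numbered 2026, 619 and 576 in the same settings, and 118 to 3181 with 1 array left out. Higher calls were 12.3% of calls, against 48.3% after normexp, 25.9% after quantile normalization, 23.2% in the deposited values and 22.4% after median scaling.

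Placed members called, 7, numbered 4 after median scaling, 2 with slide as a block and 2 with no filter, and 0 to 8 with 1 array left out. Without Sham-3 they included the 3 Pantr1 probes and the probe opposite the start of Rpusd3, none of them called with all arrays. Departures from the gene whose start lay beside the probe, 1, numbered 3 after normexp and 0 with slide as a block, and 0 to 2 with 1 array left out. Departures from the nearest NM_ probe numbered 0 by the files' own positions, 0 to 0 with 1 array left out, and 1 with borrowed positions. The cause of these shifts was not tested. The members' median difference, -0.03, turned positive after normexp (0.11), median scaling (0.08) and quantile normalization (0.04), in the deposited values (0.04), with no filter (0.06), within the first slide (0.05), and without Sham-3 (0.00068) or DJB-3 (0.06).

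With the replicate number as a block, 0 members were called, higher or lower, with 877 at an unadjusted p under 0.05, and 0 placed members and 0 departures beside a gene start were called; same-numbered arrays had deviations correlated at -0.185, -0.117 and -0.295, so they share only a number. Within a slide no test was made. With 3 arrays a group and a median intensity of 31.3, dim members carry the least certain differences.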
